A study of Mus musculus with 2 samples.

Results

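The collagen genes were taken as every gene whose symbol reads Col, a number, the letter a and a number. They were 44 of the 22652 genes listed in the 2 count tables, and each of the 44 had at least 1 captured transcript molecule in the kept cells of both libraries. By the structure that their proteins form, they were sorted into 11 fibrillar genes, 6 genes of type IV collagen, 9 FACIT genes, 3 network genes, 6 genes of type VI collagen, 2 multiplexins, 4 transmembrane collagens and 3 others. FACIT stands for fibril-associated collagens with interrupted triple helices, which sit on the surface of fibrils. Col21a1, also a FACIT gene, was not analysed here.

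Collagens are secreted as trimers of chains that wind around each other, and each gene encodes a single chain. Type I trimers fill bone, tendon and other connective tissue, type II trimers with types IX and XI fill cartilage, and type X marks the hypertrophic cartilage that bone replaces. Type IV forms the sheet under endothelium and around muscle and Schwann cells, type VI forms beaded filaments around many cells, and types XV and XVIII sit at the border of basement membranes.

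The cells came from femoral marrow of C57BL/6 mouse embryos at E18.5, released with collagenase and depleted of lineage-positive blood cells, and each of the 2 genotypes was 1 library. The WT label names no allele and no tamoxifen. The Bmx-CreER Wls library carried floxed Wls, which encodes the carrier that Wnt ligands need for secretion, together with a tamoxifen-dependent Cre under control of Bmx, a gene of arterial endothelial cells. Recombination was therefore aimed at arterial endothelium, and neither label says how many embryos or litters were pooled. With 1 library per genotype no test between them was possible. All intervals in parentheses are exact 95% intervals for counting error only, and an effect of genotype cannot be told apart from a difference between these embryos or preparations.

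Transcripts were counted as UMIs, 1 for each captured molecule. The WT table had 5998 cell barcodes and 22708005 UMIs, and the Bmx-CreER Wls table had 6825 barcodes and 24704991 UMIs. After the filter on cells 5736 and 6620 remained, with a median of 3128 and 3067 UMIs per cell. Cells were clustered without any collagen gene and fell into 21 groups. A group was named only where listed markers decided it, and otherwise by its leading gene and the word unnamed. The 9 osteoblast markers summed to 39105 counts per 1000000 UMIs of the group (CPM) in osteoblast-like cells of the WT library and to 15.4 CPM in fibroblast-like stroma, and the 7 arterial markers summed to 5799 in the arterial endothelial-like group and 385 in the endothelial-like group. The libraries shared 49 barcodes. Doublets were kept, because the caller marked 38 WT cells (0.662%) and 0 of the other library. Wls stood at 37.8 CPM (16.3 to 74.4, 8 UMIs) in WT and 7.84 (0.949 to 28.3, 2 UMIs) in Bmx-CreER Wls arterial endothelial-like cells, at 39.6 and 23.1 in endothelial-like cells, and at 49.1 and 32.1 in sinusoidal endothelial-like cells. The captured end of the transcript may lie outside the deleted part, so these values do not check the deletion.

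The promoters of 3 collagens are shown, since these genes led hypertrophic cartilage, bone and fibrous stroma, or came close to the lead, in the values that follow. RefSeq's table for GRCm38.p6 held 38 promoter windows for 35 of the 44 genes. Each line gives the 250 bases before the annotated start on the plus strand in lower case, with every match to the motifs TATAAA or CCAAT or GGGCGG on either strand in capitals. Col10a1 is shown at chr10:34389731-34389980, Col1a2 at chr6:4505368-4505617 and Col3a1 at chr1:45311288-45311537. The GENCODE position given below for Col1a2 starts earlier, at chr6:4504814, so this window lies inside that gene model. Motif distances are counted from the RefSeq start.
Col10a1: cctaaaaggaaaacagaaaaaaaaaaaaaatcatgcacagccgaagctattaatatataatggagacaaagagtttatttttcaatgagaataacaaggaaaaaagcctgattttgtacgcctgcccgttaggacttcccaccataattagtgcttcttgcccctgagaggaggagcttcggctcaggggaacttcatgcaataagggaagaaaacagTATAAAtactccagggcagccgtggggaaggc
Col1a2: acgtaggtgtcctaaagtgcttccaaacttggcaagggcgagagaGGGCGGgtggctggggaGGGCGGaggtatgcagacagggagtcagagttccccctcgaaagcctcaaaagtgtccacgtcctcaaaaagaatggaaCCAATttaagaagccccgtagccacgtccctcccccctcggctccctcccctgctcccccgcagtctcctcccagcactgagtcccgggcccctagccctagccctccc
Col3a1: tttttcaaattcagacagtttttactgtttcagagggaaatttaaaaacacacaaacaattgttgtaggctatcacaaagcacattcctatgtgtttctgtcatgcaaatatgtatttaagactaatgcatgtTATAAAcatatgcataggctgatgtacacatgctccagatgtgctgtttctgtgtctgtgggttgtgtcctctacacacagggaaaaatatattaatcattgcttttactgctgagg
Col10a1 held TATAAA 32 to 27 bases before its start. It was the only 1 of the 38 collagen windows with this motif on the gene's own strand within the last 50 bases, a share of 2.63% that equals the 2.63% of all 32851 windows. Col3a1 held TATAAA 117 to 112 bases before its start. Col1a2 held CCAAT 109 to 105 bases before its start and GGGCGG at 205 to 200 and at 188 to 183 bases. In the 250 bases before the start, on either strand, TATAAA lay in 13.2% of collagen windows and 12.4% of all windows. CCAAT lay in 34.2% and 33.8%, and GGGCGG in 57.9% and 32.7%. These matches describe letters and not bound sites.

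Collagens took 8.52% of the UMIs of kept WT cells and 9.54% of those of kept Bmx-CreER Wls cells. Osteoblast-like cells gave them the largest share of the 21 groups, 26.8% (26.7 to 26.9) in WT and 23.9% (23.8 to 24.0) in Bmx-CreER Wls. The next shares were those of hypertrophic chondrocyte-like cells with 16.6% and 16.3%, Epyc-high chondrocyte-like cells with 16.3% and 17.1%, tendon-like cells with 16.6% and 14.3%, and Epha3-high cells, an unnamed group, with 13.4% and 14.8%. Their order differed between the libraries. In WT the hypertrophic and tendon-like intervals overlapped, and in Bmx-CreER Wls the Epyc-high group was the highest of these and the tendon-like group the lowest. Fibroblast-like stroma had 10.1% and 8.32%. The Cxcl12-rich osteolineage-like group, marked by genes of marrow reticular cells, had 3.83% and 4.16%, and mural-like cells had 3.90% and 3.16%. Endothelial-like cells had 1.75% and 1.96%, sinusoidal endothelial-like cells 1.05% and 0.990%, and arterial endothelial-like cells 0.746% and 0.820%. Macrophage-like cells, at 1.14% and 1.36%, lay above the last 2 of these. Osteoclast-like cells and stem and progenitor-like cells stayed lowest, between 0.176% and 0.291%.

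The make-up of the collagen UMIs also differed between groups. Fibrillar genes held 98.7% of them in WT and 98.3% in Bmx-CreER Wls osteoblast-like cells, 75.8% and 75.6% in Epyc-high chondrocyte-like cells, and 21.7% and 23.2% in endothelial-like cells. The endothelial-like cells were uneven in this. A Cd300lg-led subcluster of 26 and 24 of them held Col2a1 at 16171 and 20616 CPM. A Cd36-led subcluster of 226 and 206 cells had 128 and 163. The shares of the whole group cover both, and the part of other cells' RNA was not tested. FACIT genes held 23.1% in the Epyc-high group of both libraries. Network genes held 72.7% and 74.9% in the small Spp1-high group and 15.1% and 13.6% in hypertrophic chondrocyte-like cells, and type VI held 28.4% and 33.4% in Hbegf-high joint surface-like cells. The 3 endothelial-like groups were led by basement membrane genes in both libraries, though only by a small margin in the arterial group. Type IV held 64.3% and 73.0% in sinusoidal endothelial-like cells, 49.7% and 50.4% in endothelial-like cells and 39.9% and 36.3% in arterial endothelial-like cells. Multiplexins reached 39.1% (36.7 to 41.6) and 33.5% (31.5 to 35.6) in the arterial group. The WT interval held the type IV share, so type IV did not lead there beyond counting error.

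**Figure D1:**
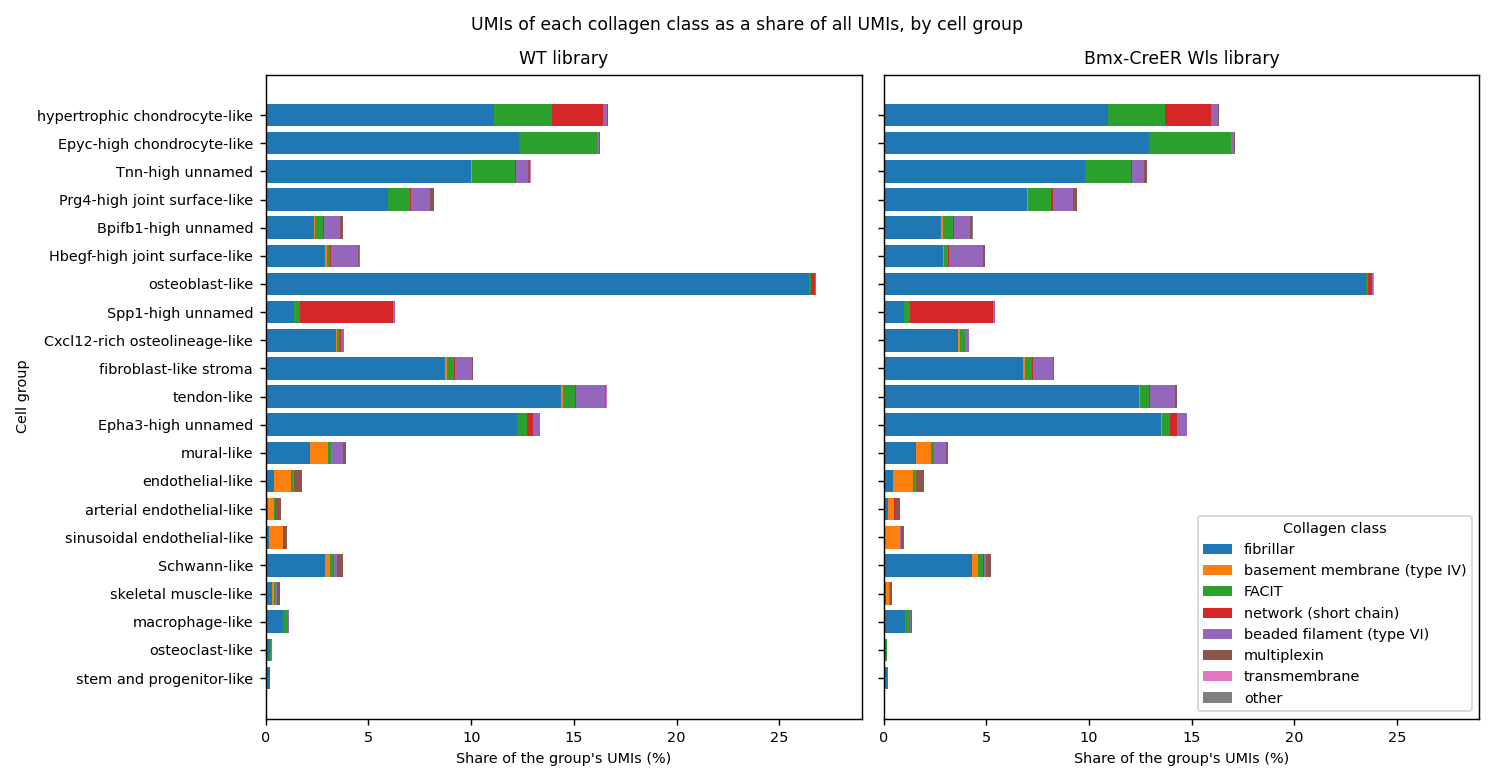
Horizontal bars give the UMIs of each collagen class as a percentage of all UMIs of each of the 21 cell groups, for the WT library (left) and the Bmx-CreER Wls library (right). The osteoblast-like bars are the longest, 26.8% and 23.9%, and nearly all fibrillar. The 3 endothelial-like groups have short bars led by type IV collagen, with multiplexins close behind in the arterial group.

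Of the 44 genes, 29 had at least 1000 UMIs over both libraries, and 33 had at least 50 in each. For 26 of these 33 the group with the highest level was the same in both libraries, where 47.4% of all 12177 genes with that many UMIs had the same highest group. Levels are in CPM, given for WT first and Bmx-CreER Wls second. They are not scaled by transcript length, so that they compare groups for 1 gene and not genes with each other.

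**Figure D2:**
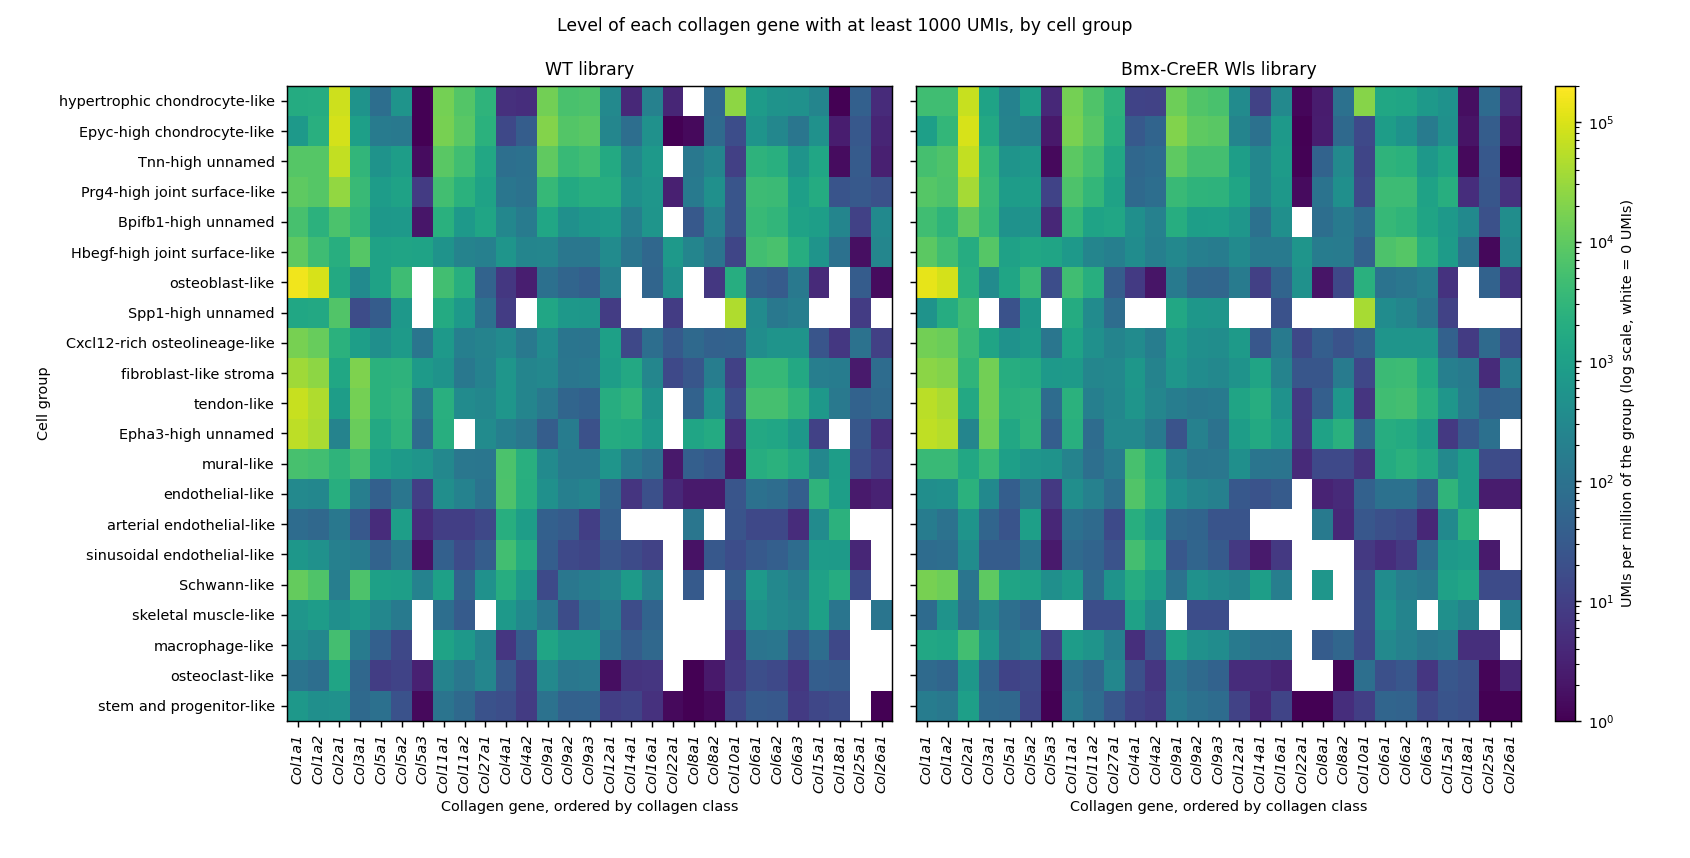
Heat maps show the level of the 29 collagens with at least 1000 UMIs in each of the 21 cell groups, in CPM on a log colour scale, with the WT library on the left and the Bmx-CreER Wls library on the right. White cells have 0 UMIs. Col1a1 and Col1a2 are brightest in osteoblast-like cells, Col2a1 and the Col9 and Col11 genes in the chondrocyte rows, and Col4a1 in the mural and endothelial rows.

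The type I chains were highest in osteoblast-like cells. Col1a1 (chr11:94936224-94953042, plus strand, GENCODE vM21 on GRCm38, as for the other positions) encodes the alpha 1 chain of type I and stood there at 154405 (153489 to 155324) and 127208 (126220 to 128201). The next group was tendon-like in WT with 72426, 2.13-fold below (2.10 to 2.16), and Epha3-high in Bmx-CreER Wls with 62299, 2.04-fold below (1.995 to 2.09). Bone thus stood apart from the next tissue by more than counting error in both libraries. Fibroblast-like stroma had 34804 and 24307 and the Cxcl12-rich group 16390 and 15104. The Cxcl12-rich level was 0.106 (0.104 to 0.108) and 0.119 (0.115 to 0.122) of the osteoblast-like level. Over the 21 groups Col1a1 ran from a lowest value of 75.6, in arterial endothelial-like cells, and 67.9, in osteoclast-like cells, through medians of 5698 and 4836. Col1a2 (chr6:4504814-4541544), the alpha 2 chain, followed the same order at the top with 95177 and 92664 in osteoblast-like cells and medians of 2529 and 3834.

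Type II collagen was the cartilage counterpart. Col2a1 (chr15:97975602-98004695, minus strand) was highest in Epyc-high chondrocyte-like cells with 91561 and 95046, and hypertrophic chondrocyte-like cells came second with 80288 and 72512. Tnn-high cells, left unnamed because their chondrocyte markers stood too little above other cells, had 64674 and 65190, and Prg4-high joint surface-like cells 27465 and 38977. These 4 groups formed a graded series in both libraries, with intervals that did not overlap. In the Hbegf-high joint surface-like group Col2a1 was only 0.0772 (0.0731 to 0.0816) and 0.0496 (0.0471 to 0.0522) of the Prg4-high level. The medians over the 21 groups were 2101 and 2166.

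The minor fibrillar chains of cartilage, which co-assemble with or regulate type II fibrils, had the same leaders. Col11a1 stood at 16325 and 17448 in the Epyc-high group and at 15371 and 15264 in the hypertrophic group, and Col11a2 at 8761 and 8312 in the Epyc-high group. Col27a1, a fibrillar chain of the growth plate, was the exception, since it was higher in hypertrophic cells, 2792 and 2656, than in Epyc-high cells, 2418 and 2291, a ratio of 1.15 (1.12 to 1.195) and 1.16 (1.12 to 1.199). Col11a1 was also well above its median of 1040 and 867 in osteoblast-like cells, at 4904 and 4640, where Col2a1 stood at 1652 and 2166. Col24a1, a small fibrillar gene with 222 and 246 UMIs, was highest in osteoblast-like cells at 99.1 and 88.2, 2.48-fold (1.75 to 3.52) and 3.15-fold (2.16 to 4.55) above the Prg4-high group.

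Col3a1 and Col5a1 were highest in fibroblast-like stroma and tendon-like cells, while the other type V genes had other leaders. Col3a1 (chr1:45311538-45349706, plus strand), of elastic and fibrous tissue, stood at 19100 and 14569 in fibroblast-like stroma and at 15864 and 14594 in tendon-like cells. The 2 groups differed by 1.204-fold (1.17 to 1.24) in WT and not beyond counting error in Bmx-CreER Wls, where the ratio was 1.002 (0.978 to 1.03). In osteoblast-like cells Col3a1 was at 338 and 369, against 958 and 1265 in the Cxcl12-rich group, so that it ran against the type I chains within the bone lineage. Col5a1, which starts type I fibrils, had 2463 and 1995 in fibroblast-like stroma and 2383 and 2336 in tendon-like cells. Col5a2 was highest in osteoblast-like cells, at 4559 and 3963, and was also raised in hypertrophic over Epyc-high cells, by 4.07-fold (3.60 to 4.62) and 4.42-fold (4.03 to 4.86). Col5a3, the third type V gene, stood at 1217 and 1239 in Hbegf-high cells, 767 and 740 in fibroblast-like stroma and 593 and 519 in mural-like cells, and in Prg4-high cells at 8.35 and 11.6, 146-fold (86.3 to 268) and 106-fold (77.5 to 150) below the Hbegf-high group.

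The FACIT genes did not share 1 leading group. The 3 chains of type IX, which bind type II fibrils, were all highest in Epyc-high cells. Col9a1 (chr1:24177610-24252684) had 20541 and 19963, Col9a2 7569 and 9730, and Col9a3 8689 and 8826, and the hypertrophic group held 0.731 (0.721 to 0.7405) and 0.682 (0.673 to 0.690) of the Epyc-high Col9a1 level. The other FACIT genes had other leaders. Col12a1, of tendon and fascia, stood at 2024 and 1268 in tendon-like and 1986 and 1303 in Prg4-high cells, and the 2 groups did not differ beyond counting error in either library (1.02, 0.931 to 1.11, and 1.03, 0.953 to 1.11). Col14a1 led in tendon-like cells with 2912 and 1978. Col16a1 stood at 746 and 794 in Epha3-high cells and at 723 and 801 in Tnn-high cells, and the lead changed between the libraries. The 2 groups did not differ beyond counting error in either (1.03, 0.859 to 1.23, and 1.01, 0.829 to 1.24). Col22a1, known from tissue junctions, stood at 690 and 578 in Hbegf-high cells and 454 and 475 in osteoblast-like cells, and at 2.98 and 1.46 in Prg4-high cells. Col20a1 and Col19a1 were sparse, with 25 and 28 UMIs and 4 and 4 UMIs. Col20a1 was highest in Schwann-like cells at 189 (97.7 to 330) and 98.8 (36.2 to 215).

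Among the network genes Col10a1 (chr10:34389981-34397085, plus strand), the marker of hypertrophic cartilage, stood at 25004.5 (24823 to 25187) and 22048 (21886 to 22211) in hypertrophic chondrocyte-like cells and at 17.9 and 14.7 in Epyc-high cells, 1394-fold (1024 to 1952) and 1502-fold (1094 to 2123) apart. A small unnamed group led by Spp1, with 25 and 17 cells, was still higher at 45658 (44431 to 46909) and 40544 (39244 to 41876). That group carried both hypertrophic markers, summing to 15923 and 15135, and osteoblast markers, summing to 22546 and 25673. Osteoblast-like cells had 2005 and 2328 for Col10a1, but 10.7 and 37.4 once the 5% of cells with the highest doublet scores were left out. The type VIII chains, of vessel walls and corneal membranes, went to another group. Epha3-high cells led with 1289 and 1145 for Col8a1 and 1738 and 2320 for Col8a2, the latter 3.72-fold (3.26 to 4.24) and 3.74-fold (3.21 to 4.36) above the next group.

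The main type VI chains shared their leading groups. Col6a1 had 5510 and 4683 in tendon-like and 5081 and 6486 in Hbegf-high cells, Col6a2 had 5560 and 5202 and 5915 and 7841 in the same groups, and Col6a3 2944 and 2296 and 1981 and 2176. The lead changed between the libraries for Col6a1. Mural-like cells stood well above endothelial-like cells, by 40.9-fold (30.5 to 56.0) and 43.3-fold (31.7 to 60.6) for Col6a3. Col6a6 had most of its UMIs in fibroblast-like stroma, which held 96.0% and 89.1% of its 248 and 174 UMIs. Col6a4 had 9 and 9 UMIs, most often in mural-like cells, and Col6a5 had 5 and 8.

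Type IV and the multiplexins described the vessels. Col4a1 (chr8:11198423-11312826, minus strand) and Col4a2 (chr8:11312805-11449287, plus strand) encode the 2 common chains of basement membranes and lie head to head, their annotated ends overlapping. Col4a1 stood at 6550 and 7437 in endothelial-like cells, 6377 and 5676 in mural-like cells, 4881 and 5323 in sinusoidal and 2097 and 2116 in arterial endothelial-like cells. Endothelial-like and mural-like cells did not differ beyond counting error in WT (1.03, 0.983 to 1.07) and differed by 1.31-fold (1.25 to 1.37) in Bmx-CreER Wls. The mural-like values pool unlike subclusters. Col4a1 stood at 8397 and 8563 in Rgs5-led cells (56 and 47 cells) and at 5535 and 6414 in Afp-led cells (38 and 22). It was 5427 and 3061 in Myh11-led cells (22 and 43), and 4527 and 3953 in Abca8a-led cells (15 and 11). Schwann-like cells, which lay down their own basement membrane, had 2017 and 1943. Col4a2 was highest in mural-like cells in WT, at 2223, and in endothelial-like cells in Bmx-CreER Wls, at 2420. The other type IV genes were sparse. Col4a5 had 262 and 424 UMIs with its highest level in the Spp1-high group, Col4a6 had 36 and 49, and Col4a3 and Col4a4 had 6 and 10 UMIs each.

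Arterial endothelial-like cells differed from endothelial-like cells in several collagens. Col18a1, the source of endostatin, was at 2555 (2344 to 2780) and 2418 (2231 to 2616), 2.73-fold (2.46 to 3.02) and 2.76-fold (2.50 to 3.06) above endothelial-like cells. Col15a1, the other multiplexin, went the opposite way with 364 and 329 against 2823 and 2976, or 0.129 (0.101 to 0.161) and 0.111 (0.0880 to 0.137). The intervals of the libraries overlapped for both genes. Col5a2 was at 916 (792 to 1055) and 999 (880 to 1130), 7.76-fold (6.23 to 9.69) and 7.98-fold (6.49 to 9.85) above endothelial-like cells, while Col5a1 stood at 4.72 and 23.5. Col4a1 was 0.3201 (0.290 to 0.352) and 0.285 (0.260 to 0.310) of the endothelial-like level, and Col4a2 was at 874 (752 to 1009) and 862 (752 to 984) against 2143 and 2420. Col8a1, the type VIII chain, was at 123 (80.2 to 180) and 153 (109 to 209) in arterial cells, on 26 and 39 UMIs, and at 2.43 (0.5002 to 7.09) and 3.43 (0.934 to 8.78) in endothelial-like cells, on 3 and 4 UMIs. The arterial group counted 64 and 60 cells. Outside the vessels Col15a1 was second in Prg4-high cells, with 1803 and 2135, and Col18a1 in Schwann-like cells, with 1891 and 1350.

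The remaining genes were low. Col13a1, a transmembrane collagen, was highest in osteoblast-like cells at 244 and 333, 3.67-fold (2.64 to 5.20) and 7.64-fold (5.06 to 11.9) above the second group. Col25a1, another of these, had 99.6 and 69.4 in the Cxcl12-rich group and 26.1 and 91.6 in Epha3-high cells, so that its highest group differed between the libraries. Col26a1 was highest in Bpifb1-high cells at 321 and 406, ahead of Hbegf-high cells at 267 and 280. Col17a1, Col23a1, Col7a1 and Col28a1 had 47 and 56, 39 and 54, 19 and 37, and 13 and 14 UMIs. Their highest groups were Spp1-high in both libraries for Col17a1, muscle and Epha3-high for Col23a1, Bpifb1-high in both for Col7a1, and Schwann and tendon for Col28a1, on a few UMIs each.

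Likeness of profile over the 21 groups was measured as Pearson's correlation of log levels. The most alike pairs were Col6a1 with Col6a2 (0.984 and 0.988), Col4a1 with Col4a2 (0.967 and 0.978), Col2a1 with Col9a1 (0.981 and 0.963), Col1a1 with Col1a2 (0.983 and 0.962) and Col9a2 with Col9a3 (0.949 and 0.993). Of 496 pairs among 32 collagens, 9 reached 0.9 in both libraries. The groups share libraries and free RNA, so these are descriptions.

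Chains of a single collagen type, and the multiplexins Col18a1 and Col15a1, which are of different types, were then set against each other as ratios of UMIs. The size of such a ratio also carries how well each transcript is captured, so only its change over groups and libraries is read. Col1a1 over Col1a2 was 1.62 (1.61 to 1.64) and 1.37 (1.36 to 1.39) in osteoblast-like cells, 1.37 (1.36 to 1.38) and 1.19 (1.18 to 1.21) in fibroblast-like stroma, and 0.338 (0.319 to 0.357) and 0.309 (0.296 to 0.323) in Epyc-high cells. Epyc-high cells thus held relatively more Col1a2 than bone or stroma. The ratio was lower in Bmx-CreER Wls in 17 of the 19 groups with a value in both libraries, with 12 intervals below and 1 above. Col9a1 over Col9a2 was 2.71 (2.67 to 2.76) and 2.05 (2.02 to 2.08) in Epyc-high cells and 2.51 (2.47 to 2.56) and 1.85 (1.82 to 1.87) in hypertrophic cells. It was lower in Bmx-CreER Wls in 12 of 15 groups, with 7 intervals below and 0 above. Col9a3 over Col9a2 was also lower in 12 of 15. These counts are not of separate readings, since the groups share libraries and free RNA, and the share of other gene pairs with 1 direction is not given.

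Col4a1 over Col4a2 had no common direction between the libraries, lower in 6 and higher in 8 of 14 groups. It was 3.06 (2.93 to 3.20) and 3.07 (2.95 to 3.21) in endothelial-like cells, 2.87 and 2.96 in mural-like cells and 2.40 and 2.45 in arterial endothelial-like cells, against 0.373 (0.239 to 0.570) and 0.582 (0.435 to 0.775) in Epyc-high cells. Col5a1 over Col5a2 ran from 0.151 and 0.246 in hypertrophic cells to 4.28 and 4.55 in stem and progenitor-like cells. Col18a1 over Col15a1 was 7.03 (5.53 to 9.04) and 7.35 (5.84 to 9.34) in arterial and 0.332 (0.310 to 0.355) and 0.294 (0.274 to 0.315) in endothelial-like cells.

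**Figure D3:**
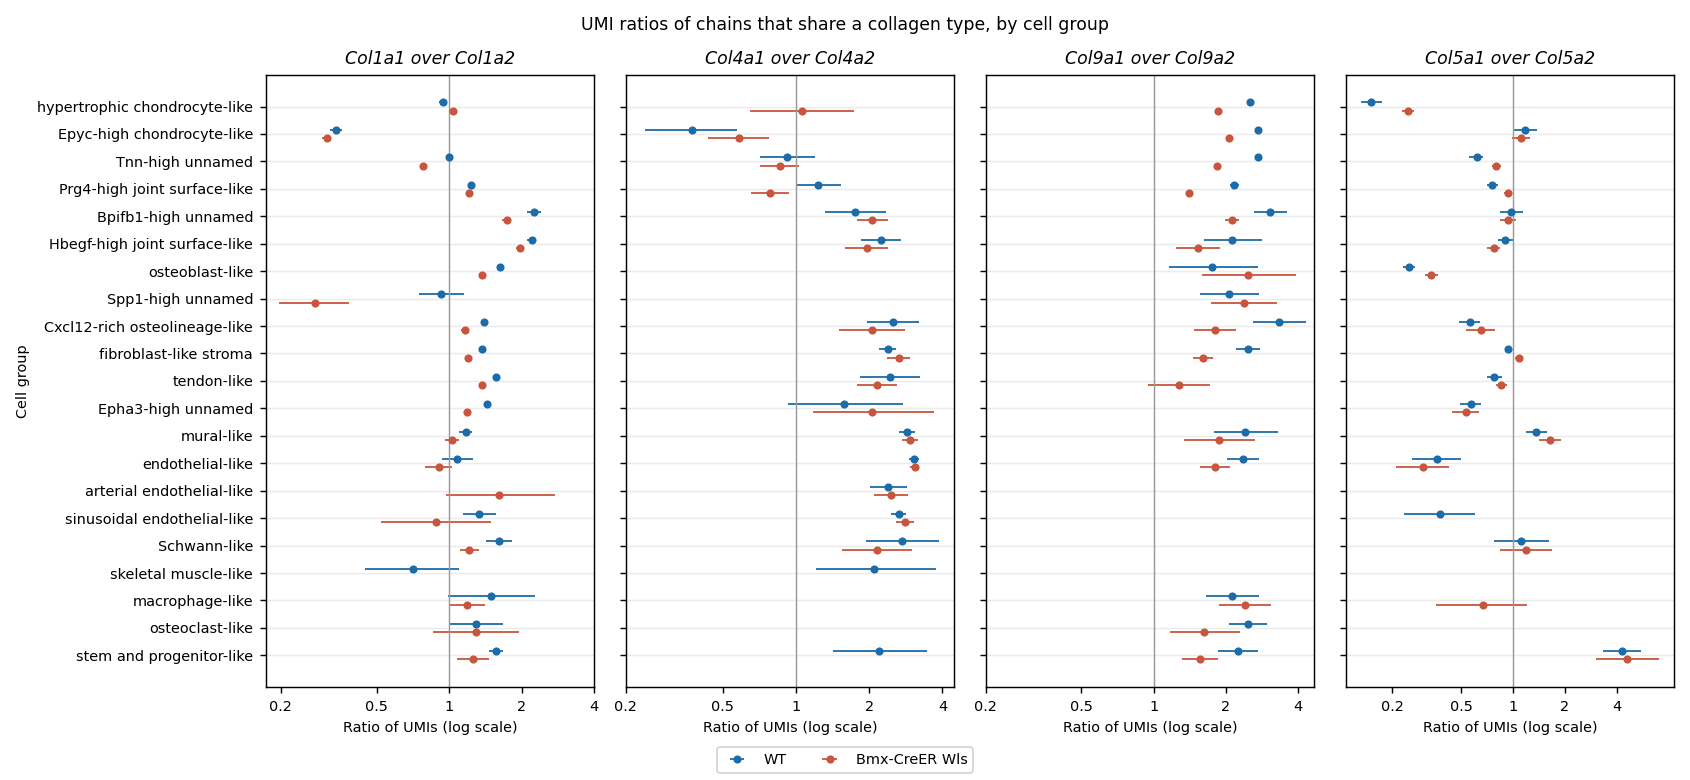
Each panel gives the ratio of UMIs of a pair of chains on a log axis for the cell groups with enough UMIs, with points for the WT and Bmx-CreER Wls libraries and bars for exact 95% counting intervals. Col9a1 over Col9a2 sits lower in the Bmx-CreER Wls library in 12 of 15 groups, and Col1a1 over Col1a2 in 17 of 19. Groups of a library are not separate readings.

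Blood cells served as a check on free RNA, because most collagens are not genes of blood cells. The level of a collagen in stem and progenitor-like cells was a median of 1.70% and 1.97% of that in all other cells, and in osteoclast-like cells 1.42% and 1.47%. In macrophage-like cells the medians were higher, 6.56% and 13.3%, beside chondrocyte markers that summed to 3582 and 2257 CPM and were all detected. Col27a1 stood out in osteoclast-like cells at 266 (238 to 295) and 283 (248.9 to 322), or 23.3% and 22.3% of the other cells' level. Of osteoclast-like cells thinned to 1000 UMIs, 22.4% and 20.6% had a Col27a1 UMI, against 1.63% and 1.38% of stem and progenitor-like cells. Without thinning the shares were 65.7% and 63.9% against 5.03% and 8.16%. Its UMIs were spread over these cells, with 25.8% and 23.1% in the top 5% of them, where Col2a1 had 97.0% and 90% there. In stem and progenitor-like cells Col5a1 had 92.3 and 58.4 CPM, and still 88.6 and 48.8 without the highest doublet scores, where Col1a1 fell from 671 and 164 to 86.4 and 45.6.

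The libraries were compared within each group, for collagens with at least 200 UMIs over both. A gene was counted as higher or lower in Bmx-CreER Wls where the ratio of levels was at least 1.5 in either direction. In arterial endothelial-like cells, the target of Cre, 0 of the 4 collagens tested were counted, where 4.86% of all genes were. Their ratios were 1.09 (0.901 to 1.32) for Col5a2, 1.01 (0.888 to 1.15) for Col4a1, 0.987 (0.808 to 1.21) for Col4a2 and 0.946 (0.842 to 1.06) for Col18a1. The fibrillar genes summed, however, came to 1256 and 2065, a ratio of 1.64 (1.42 to 1.91), with Col2a1 at 132 (87.9 to 191) and 545 (458 to 643) and Col1a1 at 75.6 and 165, each on fewer than 200 UMIs. The 9 chondrocyte markers summed to 75.6 and 172 there, and the part of other cells' RNA was not tested. In osteoblast-like cells 0 of 12 were counted, with 4.44% of all genes, and the extremes were Col12a1 at 0.787 (0.590 to 1.04) and Col13a1 at 1.37 (1.10 to 1.70). In endothelial-like cells Col3a1 at 1.79 (1.51 to 2.12) and Col1a2 at 1.59 (1.38 to 1.82) were the 2 of 17 counted, with 2.45% of all genes. Both came to 1.16 and 1.25 without the highest doublet scores, and 81.7% and 86.8% of the Col3a1 UMIs lay in the top 5% of these cells.

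**Figure D4:**
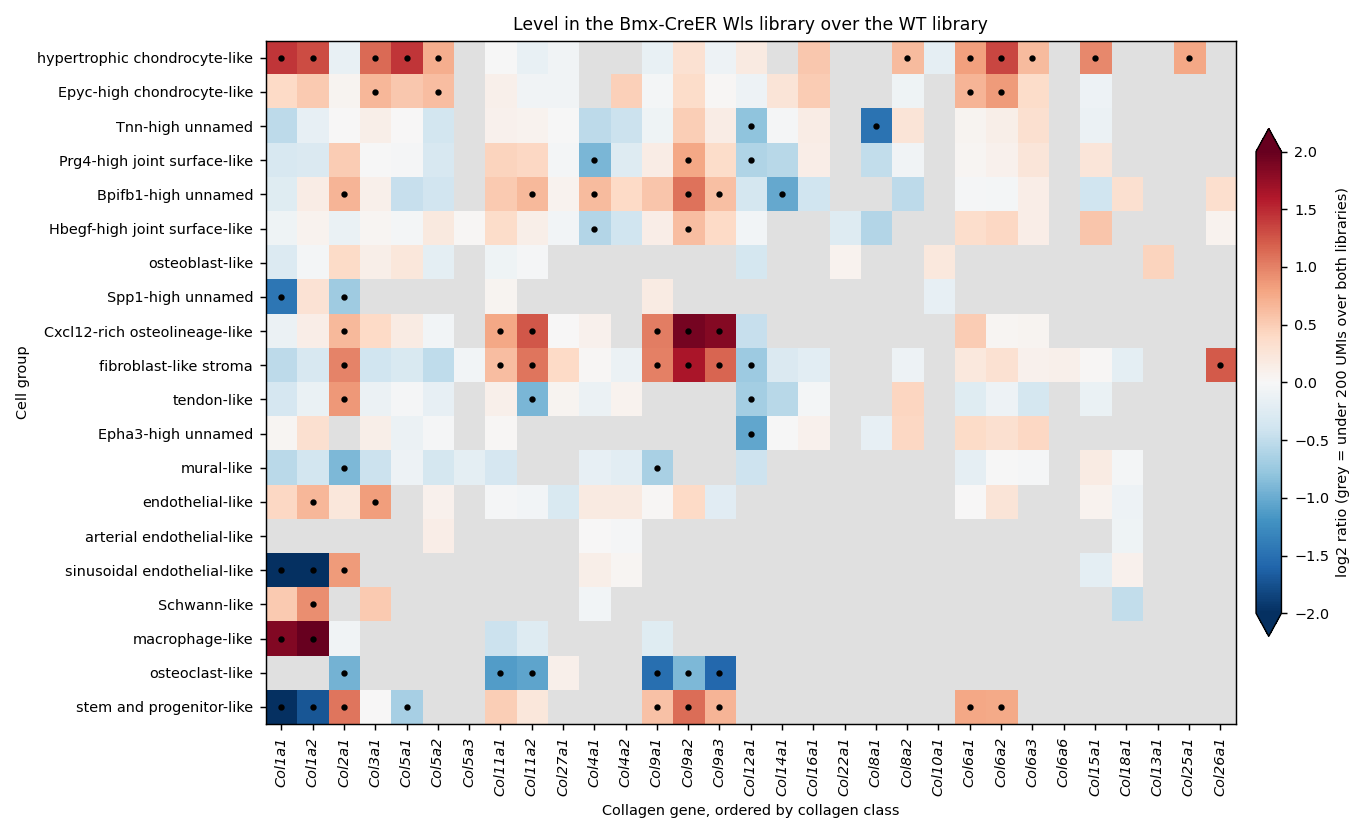
The heat map gives the log2 ratio of the level in the Bmx-CreER Wls library over the WT library for each collagen and cell group with at least 200 UMIs over both, and dots mark ratios of at least 1.5-fold. Grey cells have fewer UMIs. The hypertrophic chondrocyte-like row has the most dots, 11, all towards Bmx-CreER Wls, and the arterial endothelial-like row has 0.

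Col9a2 and Col12a1 lay on 1 side in nearly all groups. Col9a2 was higher in Bmx-CreER Wls in 10 of 11 groups, with a median ratio of 1.53, including 1.29 (1.26 to 1.31) in Epyc-high, 1.41 (1.37 to 1.46) in Tnn-high and 1.72 (1.65 to 1.79) in Prg4-high cells. Its largest ratio, 3.75, lay in the Cxcl12-rich group, where the sum of chondrocyte markers also differed between the libraries. The groups share libraries and free RNA, so they are not separate readings. Col12a1 was lower in 11 of 12, with a median of 0.741, including 0.570 (0.540 to 0.601) in Tnn-high, 0.656 (0.627 to 0.686) in Prg4-high, 0.603 (0.562 to 0.647) in fibroblast-like and 0.627 (0.562 to 0.699) in tendon-like cells. Its level in Prg4-high cells was 1986 against 1303. None of the 19 collagens tested in at least 10 groups was on the same side of 1 in all of them, while 8.05% of all 1019 genes tested as often were above 1 in every group and 5.59% below. In Tnn-high cells 2 of 23 collagens were counted, both lower (Col8a1 at 0.358, 0.290 to 0.442, and Col12a1), with 3.67% of all genes. In Prg4-high cells 3 of 23 were counted, Col9a2 upward and Col12a1 and Col4a1 (0.529, 0.435 to 0.644) downward, with 5.05% of all genes.

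In the stroma mostly cartilage collagens were counted. In fibroblast-like stroma 8 of 26 were counted, with 5.86% of all genes either way and 3.4% higher. Col12a1 was lower, and Col2a1, Col9a1, Col9a2, Col9a3, Col11a1, Col11a2 and Col26a1 were higher, led by Col9a2 at 3.10 (2.74 to 3.504), Col26a1 at 2.34 (1.98 to 2.77) and Col9a3 at 2.24 (1.98 to 2.54). The smallest were Col12a1, Col1a1 at 0.698 (0.691 to 0.706) and Col5a2 at 0.701 (0.674 to 0.728). The median log2 ratio of the 26 was 0.03, and that of all genes 0.02. Of the Col2a1 UMIs there, 94.2% and 93.2% lay in the top 5% of cells, and the 9 chondrocyte markers summed to 830 and 1625 CPM. Without the highest doublet scores Col2a1 came from 1470 and 2912 to 212 and 349, and the ratio of Col11a1 from 1.53 to 0.956, while Col26a1 went from 2.34 to 2.49 and Col12a1 from 0.603 to 0.611. In the Cxcl12-rich group 6 of 17 were counted, all cartilage collagens and all higher, with 6.92% of all genes either way and 4.43% higher. The largest was Col9a2 at 3.75 (2.85 to 4.97). There too the chondrocyte markers differed, 1036 and 1615, and without the highest doublet scores Col2a1 came to 1.07 and Col9a1 to 0.906.

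In the osteoclast-like group the counted collagens were all chains of types II, IX and XI. In osteoclast-like cells 6 of 7 were lower, with 4.27% of all genes either way and 1.51% lower, from Col9a3 at 0.335 (0.231 to 0.476) to Col9a2 at 0.534 (0.390 to 0.723), and the seventh, Col27a1, was at 1.07 (0.902 to 1.26). The chondrocyte markers summed to 597 and 253 there. In stem and progenitor-like cells 9 of 12 were counted, with 3.43% of all genes either way and 2.1% higher, 6 higher and 3 lower. Col2a1, the 3 type IX genes, Col6a1 and Col6a2 were higher, and Col1a1, Col1a2 and Col5a1 were lower. The extremes were Col1a1 at 0.245 (0.219 to 0.273) and Col9a2 at 2.17 (1.76 to 2.68), beside osteoblast markers of 116 and 10.2. In sinusoidal endothelial-like cells Col1a1 went from 653 to 74.1, a ratio of 0.113 among 3 of 7 counted, with 2.95% of all genes, and 89.7% of the WT UMIs lay in the top 5% of cells. The part of other cells' RNA in these values was not tested.

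Bpifb1-high cells had 6 of 24 counted, 5 higher and 1 lower, with 8.38% of all genes either way and 5.4% higher. Col9a2 at 2.13 (1.84 to 2.47), Col2a1 at 1.61 (1.55 to 1.68) and Col11a2 at 1.57 (1.397 to 1.77) were the highest, and Col14a1 at 0.492 (0.372 to 0.654) was the lowest. In tendon-like cells 3 of 19 were counted, with 6.26% of all genes, Col2a1 at 1.82 (1.58 to 2.09) upward, and Col12a1 and Col11a2 at 0.532 (0.406 to 0.699) downward. Mural-like cells had 2 of 17, both lower, with 7.15% of all genes, Hbegf-high cells 2 of 23 with 2.61%, Epha3-high cells 1 of 14 with 5.88%, Spp1-high cells 2 of 6 with 11%, Schwann-like cells 1 of 5 with 16.7% and macrophage-like cells 2 of 6 with 17.3%. Skeletal muscle-like cells had 0 collagens with enough UMIs, where 20.8% of all genes were counted. Over all kept cells 5 of 33 were counted, with 8.12% of all genes either way and 3.27% higher. Col9a2, Col16a1, Col26a1 and Col15a1 were higher at 1.69, 1.65, 1.63 and 1.52, and Col6a6 was lower at 0.641. These values also carry the different numbers of cells in each group.

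In the chondrocyte groups it was mostly non-cartilage collagens that were counted, all of them higher. In Epyc-high cells 4 of 21 were higher and 0 lower, with 4.63% of all genes either way and 2.61% higher. They were Col6a2 at 1.80 (1.64 to 1.99), Col6a1 at 1.603 (1.496 to 1.72), Col3a1 at 1.59 (1.505 to 1.67) and Col5a2 at 1.53 (1.32 to 1.76), and all 4 had nearly the same ratios without the highest doublet scores, 1.80, 1.603, 1.61 and 1.55. The cartilage chains themselves were close to 1, with Col2a1 at 1.04 (1.03 to 1.04) and Col9a1 at 0.972 (0.960 to 0.984). The median log2 ratio was 0.36 for the 21 collagens and -0.05 for all genes.

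In hypertrophic chondrocyte-like cells 11 of 21 were higher and 0 lower, where 4.79% of all genes were counted either way and 3.36% higher. Col1a1 stood at 1797 in WT and 4847 in Bmx-CreER Wls, a ratio of 2.698 (2.61 to 2.78), Col5a1 had 2.697 (2.33 to 3.13) and Col6a2 2.51 (2.37 to 2.67). The other 8 lay between 1.55 and 2.47. The smallest ratios were those of cartilage chains, with Col10a1 at 0.882 (0.873 to 0.891), Col11a2 at 0.899 (0.883 to 0.916) and Col2a1 at 0.903 (0.898 to 0.908). The median log2 ratio was 0.63 for the collagens and -0.0030 for all genes. Within the subclusters described below the Col1a1 ratios ran from 0.404 to 1.34, all under the 2.698 of the whole group. The Scube1-led cells, with by far the highest Col1a1 levels, had a ratio of 0.610 and numbered 26 in WT and 145 in Bmx-CreER Wls. The ratio of the whole group thus carries the unequal cell numbers of its subclusters and is not a rise within the cells richest in Col1a1. In WT 88.6% of the Col1a1 UMIs lay in the top 5% of hypertrophic chondrocyte-like cells, against 46.9% in Bmx-CreER Wls.

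The hypertrophic group was therefore divided further, again without collagens, into 6 subclusters called by their leading genes. The cells were 77 and 62 for R3hdml, 57 and 36 for Ihh, 84 and 87 for Chac1, 114 and 92 for Smpd3, 97 and 67 for Slc13a5, and 26 and 145 for Scube1. By the marker rule the Ihh-led, Slc13a5-led and Scube1-led cells were called hypertrophic, the R3hdml-led and Smpd3-led cells chondrocyte, and the Chac1-led cells were left unnamed, so the values of the whole group also cover cells that the rule does not call hypertrophic. Within them 1 of 17, 1 of 14, 6 of 14, 5 of 17, 0 of 14 and 2 of 19 collagens passed 1.5-fold between the libraries. In the order of the cell numbers above, 1, 0, 6, 3, 0 and 1 were higher in Bmx-CreER Wls, and 0, 1, 0, 2, 0 and 1 lower. The share of all genes is not given for the subclusters. Col1a1 had ratios of 0.855, 0.404, 1.06, 1.34, 1.33 and 0.610 in the same order, some of them on few UMIs. The collagens themselves set the subclusters apart. Col10a1 was highest in the Slc13a5-led cells at 83796 (83104 to 84492) and 91908 (91072 to 92749), and at 185 and 11.6 in the Chac1-led cells, while Col2a1 lay between 66633 and 97680 in all 6.

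The Scube1-led cells held cartilage and bone collagens together. Col1a1 stood there at 27387 (26605 to 28185) and 16714 (16448 to 16983) and Col1a2 at 20904 and 14222, where the other 5 subclusters had 46.7 to 511 for Col1a1. Col2a1 remained at 69971 and 66633 and Col10a1 at 24531 and 17687 in the same cells. At least 5 UMIs of both Col1a1 and Col2a1 were found in 26 of 26 WT cells (100%, 86.8 to 100) and 143 of 145 Bmx-CreER Wls cells (98.6%, 95.1 to 99.8), and 69.2% and 68.3% had at least 5 of Col10a1 too. In the 5 other subclusters both genes reached 5 UMIs in 2.06% to 21.4% of cells. Their median doublet scores were 0.0261 and 0.0252, within the 0.0217 to 0.0710 of the other subclusters. Ibsp, which encodes a bone matrix sialoprotein, was at 7331 and 1703 CPM. Whether the unequal number of Scube1-led cells reflects genotype or preparation cannot be told apart with 1 library each.

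**Figure D5:**
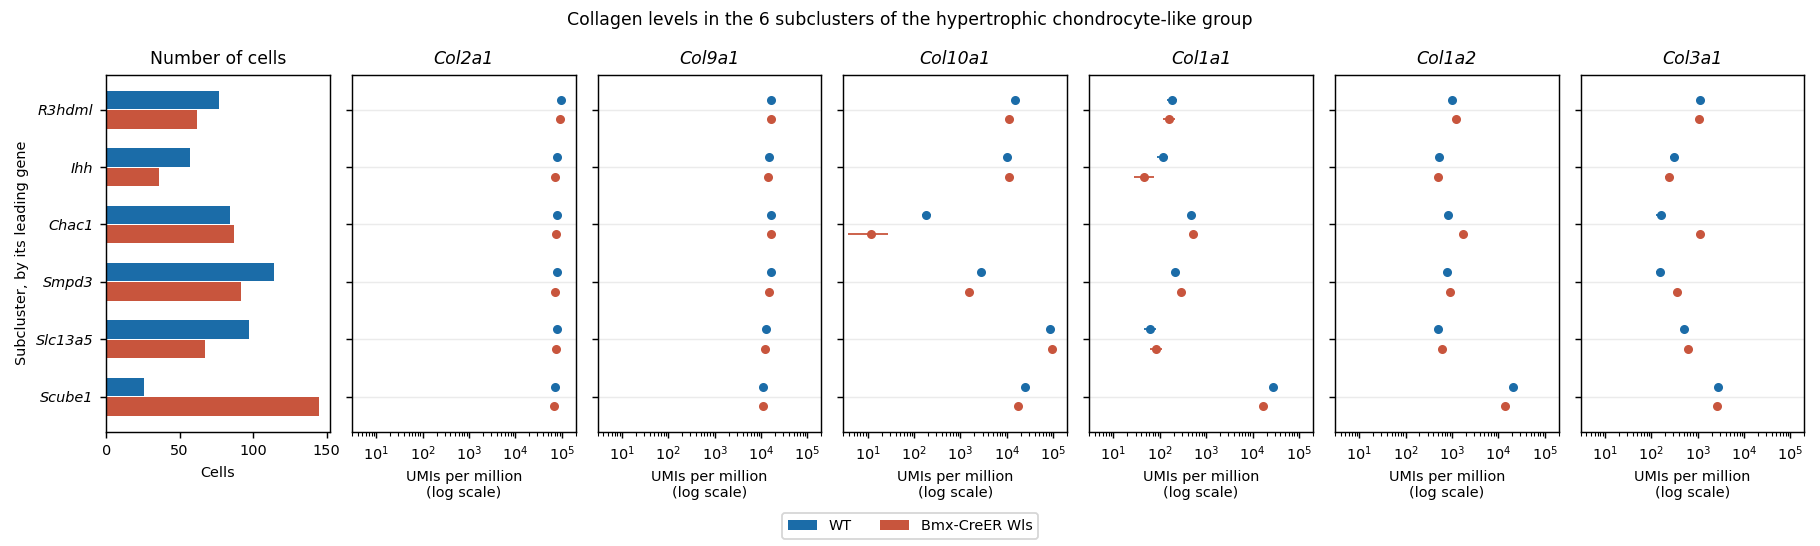
Bars on the left count the cells of the 6 subclusters of the hypertrophic chondrocyte-like group in the WT and Bmx-CreER Wls libraries, and the 6 panels give collagen levels in CPM on a log axis with exact 95% counting intervals. The Scube1-led subcluster has 26 and 145 cells and holds Col1a1 at 27387 and 16714 beside Col2a1 at 69971 and 66633.

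The genes that modify, fold, cut and crosslink collagen chains were found for all 31 of a fixed list. The highest level was in Epyc-high cells for 9 of them in WT and 8 in Bmx-CreER Wls, in osteoblast-like cells for 8 and 7, and in hypertrophic cells for 5 and 3. The share of all genes that were highest in these groups is not given, so the counts only describe the list. Serpinh1, the chaperone HSP47 of procollagen, stood at 7648 and 6201 in osteoblast-like cells and at 5532 and 4009 in Epyc-high cells. Sparc, a matrix protein that binds collagen, had 32836 and 30818 in osteoblast-like cells, and Pcolce, an enhancer of propeptide cleavage, 1158 and 1312. The prolyl hydroxylase subunits P4hb, at 2036 and 2217, and P4ha1, at 1071 and 1031, and the lysyl hydroxylase Plod2, at 1741 and 1541, were highest in Epyc-high cells in both libraries.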

How the data were processed

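Single-cell libraries were made with the BD Rhapsody whole transcriptome assay from 1 WT and 1 Bmx-CreER Wls preparation. Per the submitters' processing notes and the methods, the authors used bcl2fastq 2.19.1.403, UMI-tools 1.0.1, STAR 2.7.1a and featureCounts 1.6.4 on mm10, and deposited raw UMI counts per gene and cell. The filter on cells required over 200 and below 5000 genes, and mitochondrial UMIs below 30%. Both libraries were log-normalised to 10000 UMIs and clustered together in scanpy 1.11.5 (11 principal components, 20 neighbours, Leiden resolution 0.5) after all collagen genes were removed. Clusters holding more than 1 cell type were divided at resolution 0.3, a step added after the clusters were seen. A group was named where at least 3 listed markers stood 2-fold above other cells with a mean log2 difference of 1.2, a limit also set after the clusters were seen, and the Spp1-led group, which the rule would call osteoblast, was left unnamed because its hypertrophic markers were high too.

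UMIs were summed per library and group and given per 1000000. Intervals were exact Poisson for levels, Clopper-Pearson for shares and conditional binomial for ratios, all at 95%, which leave out every error but that of counting. No test between libraries was run, and p-values are absent for that reason. In simulated counts the intervals held the true ratio for 94.9% of 4050 genes of the hypertrophic group, 95.6% of 4438 of the fibroblast-like group and 95.2% of 2324 of the endothelial-like group. These counts were Poisson draws of summed UMIs, for which such intervals are made. The check thus covers the calculation only, and not the uneven spread of real UMIs over cells, embryos or preparations. All collagens are accounted for. Those with at least 1000 UMIs are plotted in every group, and the text names their leading groups, the 3 largest and 3 smallest ratios in the groups described most fully, and the 6 processing genes with the most UMIs. The members, lists and comparisons were chosen with earlier results of these data known. Alternatives covered scaling (edgeR 4.0.16 TMM in R 4.3.3 and median of ratios), UMI minimums, stricter cell filters, cells without the 5% highest doublet scores, clusters with collagens, resolution 1, 30 components and the study's own cell lists. Python 3.11.15, numpy 2.4.6, scipy 1.17.1, pandas 2.3.3 and matplotlib 3.10.9 were used.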

Additional observations from a re-analysis of the deposited data

Results flagged for a closer look

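For 10 collagens the ratio of Bmx-CreER Wls over WT lay above 1.5 in 1 cell group and below its inverse in another, with 1 library per genotype. The difference between the groups was not tested, and the share of all genes with such a pattern is not given. Many of these values lie in groups where markers of other cells or a few cells held part of the UMIs, as described above. The part of other cells' RNA was not tested. Without the highest doublet scores Col9a1 was no longer higher in the Cxcl12-rich group. Col9a2 had 3.75 in the Cxcl12-rich osteolineage-like and 0.534 in the osteoclast-like group, Col9a3 had 3.57 and 0.335, Col9a1 2.03 and 0.352, Col11a2 2.35 and 0.483, and Col11a1 1.70 and 0.463 in the same groups. Col2a1 had 2.11 in stem and progenitor-like cells and 0.517 in osteoclast-like cells. Col1a1 had 3.63 in macrophage-like and 0.113 in sinusoidal endothelial-like cells, and Col1a2 had 4.54 and 0.172. Col5a1 had 2.697 in hypertrophic chondrocyte-like and 0.632 in stem and progenitor-like cells. Col4a1 had 1.54 in Bpifb1-high and 0.529 in Prg4-high joint surface-like cells.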

How the results depend on the processing

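The highest group of each collagen was the same in both libraries for 26 of 33 genes, or 31 with undivided clusters, and all 6 alternatives stayed within 1.5 times. For the collagen share of UMIs, 23 of 74 alternatives over both libraries stayed within the counting interval, and the shares that follow are those of WT. Without haemoglobin and mitochondrial genes the shares were 16.9% in chondrocyte-like, 17.4% in hypertrophic, 15.5% in bone lineage-like, 11.1% in fibroblast and tendon-like and 1.72% in endothelial-like cells, and as a mean over cells 16.6%, 16.8%, 11.9%, 10.49% and 1.55%. The stricter cell filter gave 14.9% for bone lineage-like and 10.7% for fibroblast and tendon-like cells. Without the highest doublet scores bone lineage-like cells had 15.2% and endothelial-like cells 1.35%. With collagens in the clustering the hypertrophic share was 16.5%, bone lineage-like 14.8% and fibroblast and tendon-like 10.999%. Resolution 1 gave 15.6% in chondrocyte-like, 17.8% in hypertrophic and 10.6% in fibroblast and tendon-like cells, and 30 components gave 16.6%, 17.2% and, in endothelial-like cells, 1.47%. The study's cell lists gave 13.4% for chondrocytes, 10.505% for fibroblast and tendon-like and 1.23% for endothelial-like cells. Main values were 16.3%, 16.6%, 14.7%, 10.6% and 1.603%.

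Counts of collagens past 1.5-fold moved in 21 of 51 alternatives. With no minimum of UMIs they were 17 in chondrocyte-like, 22 in hypertrophic, 14 in fibroblast and tendon-like and 13 in endothelial-like cells, against 4, 11, 7 and 2. Resolution 1 gave 8 in chondrocyte-like and 1 in endothelial-like cells, where a minimum of 50 UMIs gave 6, leaving out the highest doublet scores 0, clusters with collagens 1 and 30 components 8. Subclusters, added after the data were seen, gave 1, 1, 6, 5, 0 and 2 in hypertrophic and 1, 3, 3, 2 and 2 in fibroblast-like cells. Subclusters hold fewer cells, and the cause of the other changes was not tested. The share of all genes is not given for these alternatives. With no minimum, collagens with few UMIs were counted too, so these counts are not read as results about collagens. Of 18 alternatives for chain ratios, 17 stayed within the interval, and Col1a1 over Col1a2 in WT osteoblast-like cells was 1.66 as a mean over cells. No paired analysis was possible because each genotype has 1 library. For the same reason no replicate could be left out. Depth limits the genes with few UMIs and the arterial group, where 4 collagens reached 200 UMIs.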
